A study of Mustela putorius furo with 20 samples.

Results

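The gyral and the sulcal oSVZ were compared at postnatal day 15 (P15) in the ferret, in 10 of the 20 libraries of the series. These were the 5 libraries of the outer subventricular zone (oSVZ) below the coronal gyrus (CG) and the 5 below the suprasylvian sulcus (SSS). They were chosen by the age and region in their labels and paired by the animal named in the library names, so that each of 5 animals gave 1 CG and 1 SSS library. The other 10 libraries, of the same regions at P5, shared the estimate of the spread and gave the values at P5. Of 32057 identifiers 12669 had enough reads to test, and 10533 of these carry a gene symbol. The symbols stood out of register with the identifiers in the deposited table and were put back by rank among the sorted identifiers, so every gene name below rests on that pairing. Under it 269 identifiers of housekeeping families (ribosome, proteasome, respiratory chain and the like) had a median of 72.4 CPM (reads scaled to the size of the library), against 5.90 and 9.16 CPM when the symbols were moved by 1 place in either direction. No table that pairs the identifiers with names independently was used here.

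The oSVZ is a germinal layer of the developing cortex that is wide in mammals with folded brains. Its basal radial glia keep a process towards the pial surface and divide there, giving rise to further progenitors and to neurons. Intermediate progenitors, which express EOMES (also called TBR2), divide to make excitatory neurons, while interneurons enter the cortex from the ganglionic eminences and pass through the subventricular zone. After the main period of neurogenesis the layer also makes astrocytes and oligodendrocyte precursors. Neurons on their way to the cortical plate and growing axons cross it throughout.

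All animals were kits of the same age with no treatment stated. By its label a P15 CG library differed from the P15 SSS library of its animal only in the region captured. The RNA yield and integrity that the paper lists also differed between the regions of an animal. Samples of low yield were given more amplification cycles. The part of RNA quality in the regional differences was not tested. The area was outlined on Nissl-stained sections and cut by laser, and 50 consecutive coronal sections of 1 region were pooled in each library. RNA was amplified by SPIA, a linear amplification from primers that adds no molecular identifiers, so that copies of 1 molecule were counted as separate reads. Both regions come from a single block of each brain, and in such bulk tissue fewer cells of a type and less RNA per cell cannot be told apart.

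The P15 libraries held 2618470 to 4095208 counted reads in the CG and 2488477 to 3542289 in the SSS. Total counts did not separate the regions (exact sign-flip permutation test over 5 animals, two-sided p = 0.75, the smallest possible being 0.0625). More genes were detected in the CG in 4 of 5 animals (means 15982 in the CG and 15237 in the SSS, p = 0.19 by the same permutation test). The SSS library of animal 4 stood apart. In it 1371 of the tested genes had no read, against 49 to 366 in the other SSS libraries and 65 to 300 in the CG. The within-animal log2 differences of all genes had an SD of 1.64 in animal 4 and 0.723 to 1.01 in the other animals. Of the medians of the 42 gene lists described below, 10 turned their sign when animal 4 was left out, 20 moved by over 1.5 times with the sign kept, and 12 did neither, so the medians are given with and without it where they turned or moved. Over the other 4 animals 1.23% of 12987 tested genes had an unadjusted p under 0.05 towards the CG and 1.26% towards the SSS. Genes of radial glia were present in every library, with VIM at 237 to 517, PAX6 at 30.4 to 70.8 and NES at 43.6 to 174 CPM (reads scaled to a common library size by the trimmed mean of M-values). FOXJ1, the regulator of motile cilia that marks ependyma, lay at 0 to 11.9 CPM.

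Regional differences at P15 were few and small. Of 12669 genes 2 passed a false discovery rate (FDR, Benjamini-Hochberg) of 0.05 in a quasi-likelihood fit of edgeR that took out the level of each animal, which is 0.0158% of the genes tested. EOMES was higher in the CG and the somatostatin gene SST was lower. The study, with its own edgeR fit of paired samples, reported no significant gene between these regions at P15, and so called neither. An unadjusted p under 0.05 was found for 471 genes (3.72%), 235 with a positive log2 fold change (1.85%) and 236 with a negative one (1.86%). Of these, 81 and 45 lay beyond 2-fold. In 5 of 5 animals 482 genes (3.80%) were measured higher in the CG and 422 (3.33%) lower. The 5 CG values lay wholly above the 5 SSS values for 29 genes (0.229%) and wholly below for another 29 (0.229%). Over all genes the median log2 fold change was 0.03, and 54.0% of the genes had a positive one. Leaving animal 4 out, the median was 0.01 and 50.9% were positive. With all animals in, the median was 0.20 among genes under 10 CPM, 0.06 at 10 to 30 CPM and -0.03 at 300 CPM or more. Genes at an unadjusted p under 0.05 in edgeR, in either direction, were also more frequent at higher levels. They were 1.67% of the genes under 10 CPM and 8.19% of those at 300 CPM or more. The lists below are set beside the value over all genes, not beside genes of their own level.

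**Figure D1:**
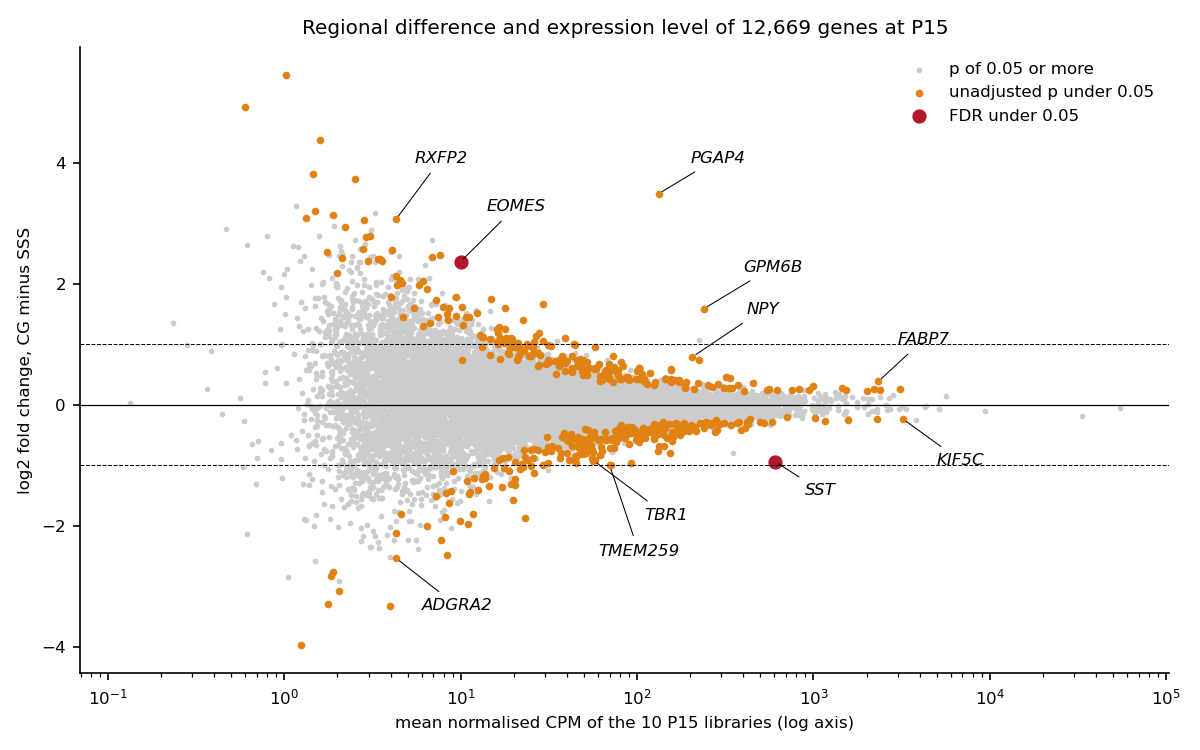
Log2 fold change between CG and SSS (y axis, above 0 where the CG is higher) against the mean normalised CPM of the 10 P15 libraries (x axis, log scale). Each point is 1 of 12669 genes, coloured by its edgeR result, and the dashed lines mark a 2-fold difference. Differences narrow as expression rises, and the 2 genes with an FDR under 0.05 are EOMES and SST.

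The size of a measured difference followed the expression level. Among 3823 genes under 10 CPM the median size of the log2 fold change was 0.54, with a median SE of 0.94, and 22.8% of them lay beyond 2-fold. Among 3346 genes of 30 to 100 CPM it was 0.19, and 4 genes lay beyond 2-fold. Among 513 genes of 300 CPM or more it was 0.11, and no gene did. In this top class the 95% confidence interval of 510 genes stayed inside a 2-fold difference, which was so for 12 genes under 10 CPM. The animals shared little of their differences. Across 2040 genes of at least 100 CPM, the within-animal differences of any pair of animals correlated with a median r of 0.07 (-0.05 to 0.21, 10 pairs). This correlation is across genes of the same libraries and is a description.

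SST, which encodes the peptide somatostatin of a class of interneurons, read 466, 619, 416, 268 and 338 CPM in the CG of animals 1 to 5 and 1009, 780.1, 688, 873 and 611 CPM in the SSS of the same animals. It was lower in the CG of 5 of 5 animals, although the CG library of animal 2 reached above the SSS library of animal 5. The fold was 1.92 (log2 fold change -0.94, SE 0.157, adjusted p = 0.0273, edgeR), on 6699 reads in the CG and 12093 in the SSS. The 95% confidence interval of the log2 fold change ran from -1.27 to -0.62, and the within-animal differences ran from -1.70 in animal 4 to -0.33 in animal 2. Without animal 4 the log2 fold change was -0.76 and the adjusted p in edgeR was 0.131.

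EOMES, the transcription factor of intermediate progenitors, read 14.6, 16.7, 14.3, 13.03 and 23.02 CPM in the CG and 2.31, 1.99, 2.73, 1.36 and 9.80 CPM in the SSS. Every CG library lay above every SSS library. The fold was 5.15 (log2 fold change 2.36, SE 0.403, adjusted p = 0.0273, edgeR; 95% confidence interval of the log2 fold change 1.53 to 3.19). The values rest on few reads, 34 to 63 in a CG library and 3 to 29 in an SSS library. The SSS library of animal 5 held the 29, and the within-animal difference was smallest there, at 1.18 against 2.15 to 2.78 in the others. Without animal 4 the log2 fold change was 2.21 and the adjusted p in edgeR was 0.131. EOMES at P15 lay well under its level at P5, where the means were 82.1 CPM in the CG and 57.7 CPM in the SSS. Both calls were lost without P15 animals 1, 3 or 4 and without P5 animals 2 or 3, SST also without P15 animal 5 and EOMES without P15 animal 2 or P5 animal 5. They were also lost when the P15 libraries were fitted alone (adjusted p in edgeR 0.431 for SST and 0.963 for EOMES).

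**Figure D2:**
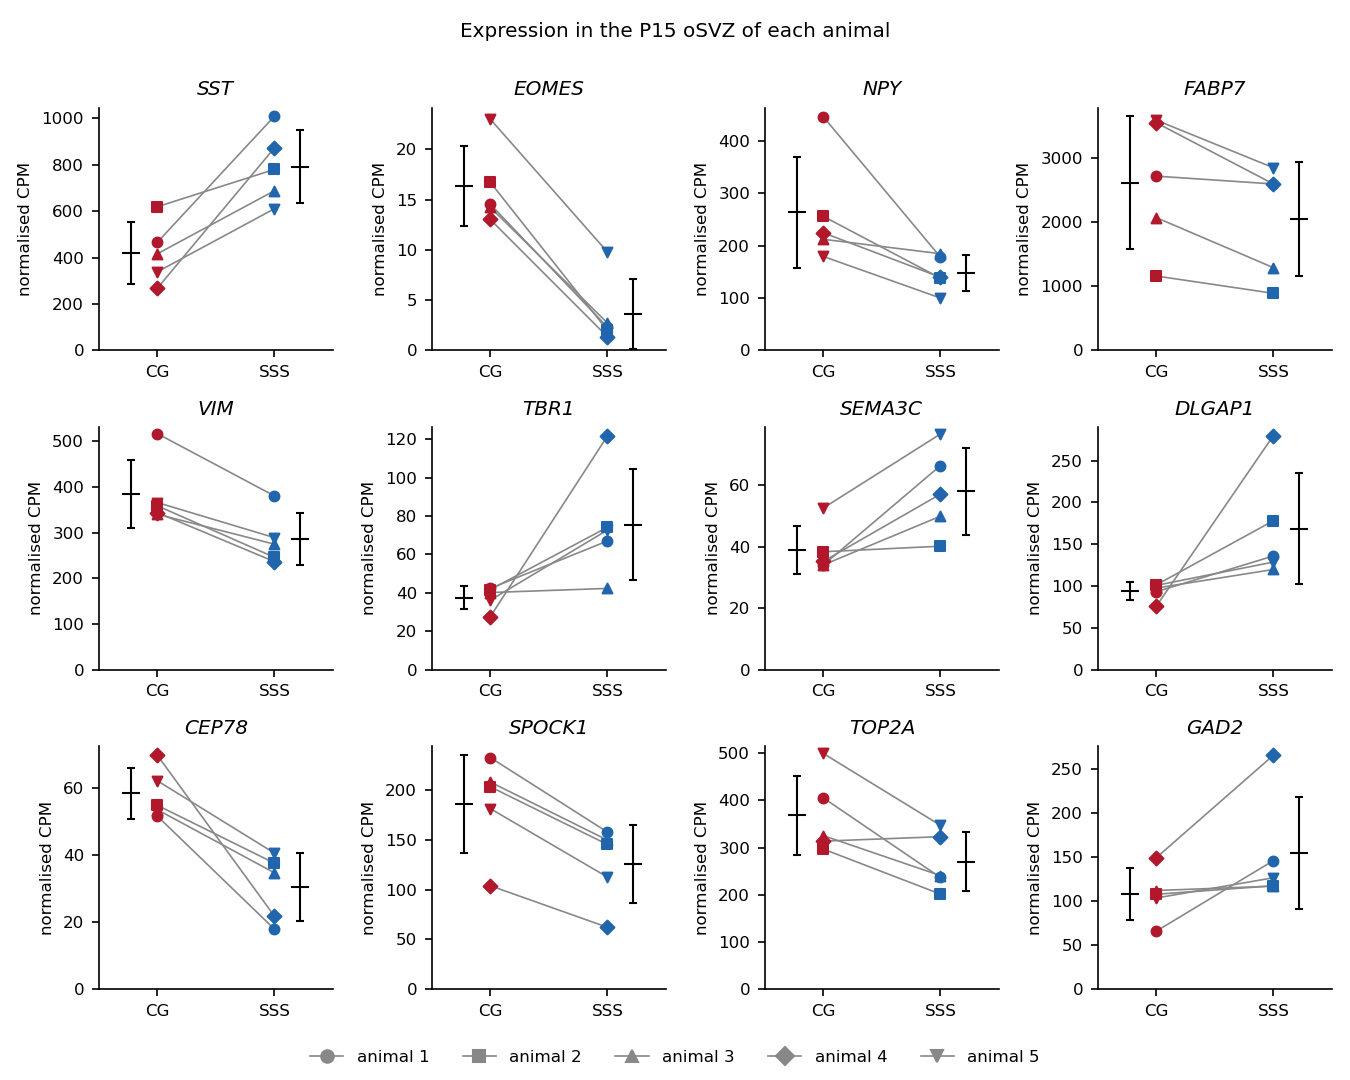
Normalised CPM of 12 genes in the CG (red) and the SSS (blue) of each P15 animal (y axes from 0). Lines join the libraries of 1 animal, and black bars give the mean and SD of 5 libraries. The lines of SST, TBR1, SEMA3C, DLGAP1 and GAD2 climb towards the SSS in 5 of 5 animals, and those of EOMES, NPY, FABP7, VIM, CEP78 and SPOCK1 fall, while TOP2A has 1 animal against the rest.

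Genes of radial glia were on the whole measured slightly higher in the CG. Of 25 listed genes 22 were in the table and tested, and 17 had a positive log2 fold change, with a median of 0.18 against 0.03 over all genes. Measured higher in the CG of 5 of 5 animals were 5 of the 22, and none was lower in all. FABP7, VIM and ITGB5 had an unadjusted p under 0.05, 3 of 22 where 1.85% of all genes did so in this direction. None of them passed the adjusted test. The summed CPM of the list was higher in the CG of every animal, by a mean log2 ratio of 0.12 ± 0.03 (SD, n = 5). PTPRZ1, a receptor phosphatase of basal radial glia, made up 40.2% of that sum, and without it, an alternative chosen after seeing the data, the ratio was 0.23 ± 0.07.

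FABP7, a fatty acid-binding protein of radial glia, read 2721, 1162, 2074, 3554 and 3594 CPM in the CG and 2598, 891, 1292, 2598 and 2852 CPM in the SSS. The spread between animals was wider than the gap between regions, and within every animal the CG was higher (log2 fold change 0.38, SE 0.0817, adjusted p = 0.305, edgeR). VIM, the intermediate filament vimentin of radial glia and astrocytes, read 517, 359, 340.5, 344 and 366 CPM in the CG and 381, 246, 275, 237 and 289 CPM in the SSS. The CG library of animal 1 was far above the rest (log2 fold change 0.43, SE 0.123, adjusted p = 1.00, edgeR). ITGB5, an integrin beta subunit, read 115, 65.98, 75.9, 95.1 and 70.5 CPM in the CG and 79.4, 59.2, 62.3, 25.4 and 47.3 CPM in the SSS, and its log2 fold change of 0.67 fell to 0.39 without animal 4, whose SSS library is the lowest. Some other genes of the list sat near 0, among them PTPRZ1 at -0.03, NES at 0.02 (0.23 without animal 4) and SOX9 at 0.04. LGALS3BP, chosen after its value was seen, went the other way, with the most negative log2 fold change of the list at -1.43. No gene of the list had an unadjusted p under 0.05 in edgeR towards the SSS. LHX2, a transcription factor of cortical progenitors that is on no list and was chosen after its values were seen, read 319.5, 302, 235, 257 and 242 CPM in the CG and 233, 159.5, 269.8, 47.6 and 187 CPM in the SSS (log2 fold change 0.74, SE 0.216, adjusted p = 1.00, edgeR). Without animal 4, whose SSS library was the lowest, its log2 fold change was 0.38.

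**Figure D3:**
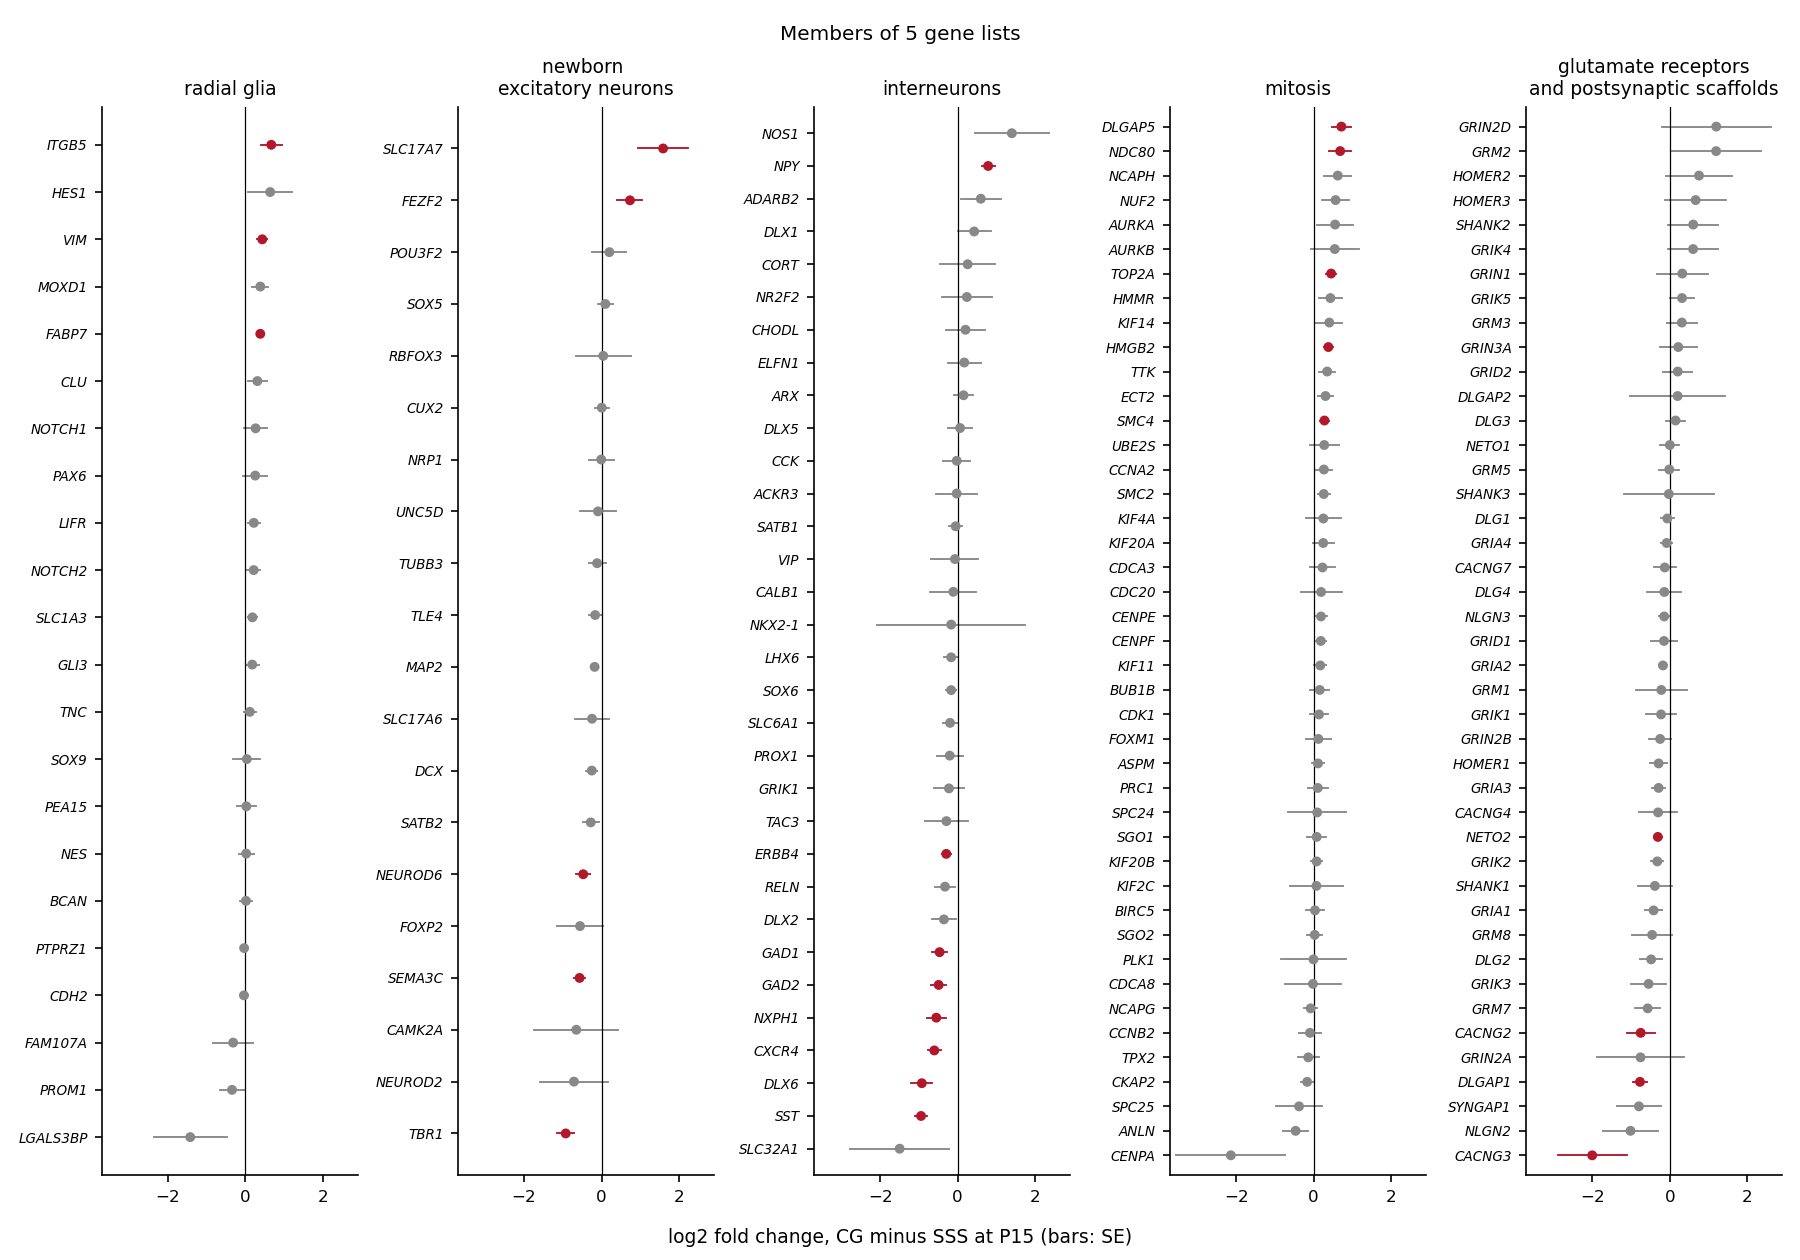
Log2 fold changes between CG and SSS at P15 (x axis) of the tested genes of 5 lists, 1 interneuron gene not shown, with the SE as bars. Red marks an unadjusted p under 0.05 in edgeR. Points of the radial glia and mitosis lists lie mostly right of 0, and those of newborn excitatory neurons, interneurons and glutamate receptors mostly left.

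Among intermediate progenitor genes EOMES stood alone. Of 18 listed genes 13 were in the table and 11 were tested, of which 9 had a positive log2 fold change (median 0.30, and 0.98 without animal 4). Leaving animal 4 out, 7 of the 11 were positive. EOMES was the sole member that passed the test and the sole one higher in 5 of 5 animals. NEUROG2, a proneural factor upstream of EOMES, had 33 reads in all 10 libraries, and its log2 fold change of 1.78 had an SE of 1.10. NEUROD1, a related factor that follows EOMES in the lineage, was at -1.65 (SE 0.806) on 50 reads. The summed CPM of the list, of which ELAVL4, a neuronal RNA-binding protein, made up 69.5%, was higher in the CG of 3 of 5 animals. Without ELAVL4 it was higher in 5 of 5, by a log2 ratio of 0.24 ± 0.17.

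Genes of mitosis were also mostly measured higher in the CG. All 43 that the table holds of 54 listed were tested, 34 had a positive log2 fold change, and the median was 0.19. TOP2A, HMGB2, DLGAP5, NDC80 and SMC4 had an unadjusted p under 0.05 towards the CG and none did towards the SSS, 5 of 43 where 1.85% of all genes did so towards the CG. In 5 of 5 animals 7 genes were higher and 1 was lower, where 3.80% and 3.33% of all genes were. None of them passed the adjusted test. TOP2A, the topoisomerase that untangles chromosomes in dividing cells, read 405, 297, 325, 314 and 499 CPM in the CG and 237, 201, 241, 323 and 347 CPM in the SSS, higher in the CG in every animal but animal 4. Its log2 fold change was 0.45, and 0.57 without animal 4. HMGB2, a chromatin protein of cycling cells, read 258, 169.7, 196, 185 and 262 CPM in the CG and 174, 132, 165, 139 and 212 CPM in the SSS, higher in the CG within each animal. DLGAP5, a mitotic spindle protein, read 42.01, 53.5, 56.8, 39.1 and 53.4 CPM in the CG and 19.1, 21.3, 29.2, 38.1 and 48.7 CPM in the SSS, and its regions nearly met in animals 4 and 5. NDC80, a kinetochore subunit, and SMC4, a condensin subunit, were chosen after their values were seen, and had log2 fold changes of 0.69 and 0.28. The summed CPM of the list was higher in the CG of 4 of 5 animals (mean log2 ratio 0.18 ± 0.17), animal 4 being the exception at -0.03. Over the other 4 animals the list had 34 positive genes again and 8 of 43 at an unadjusted p under 0.05, all towards the CG, where 1.23% of all genes were.

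The genes of DNA replication did not lean. Of 34 tested, 19 had a positive log2 fold change (median 0.03, and 0.06 without animal 4), none had an unadjusted p under 0.05 in edgeR, and 2 were lower in the CG of 5 of 5 animals. MCM7, a subunit of the replicative helicase, had the lowest p, with means of 7.43 CPM in the CG and 16.6 CPM in the SSS (log2 fold change -1.19, SE 0.583, and -0.54 without animal 4). The 9 histone genes tested had a median of 0.03, which was -0.04 without animal 4, and H2AC25, a histone H2A gene with near-identical copies among which reads could be split, was at 0.56 (SE 0.181, unadjusted p in edgeR 0.00453).

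Genes of newborn excitatory neurons were mostly measured lower in the CG. Of 25 listed genes 21 were in the table and 20 were tested, of which 14 had a negative log2 fold change (median -0.17). TBR1, SEMA3C and NEUROD6 had an unadjusted p under 0.05 towards the SSS, where 1.86% of all genes did. FEZF2 and SLC17A7 had one towards the CG, where 1.85% of all genes did. None passed the adjusted test. With animal 4 left out 16 of 20 were negative. In that fit 5 had an unadjusted p under 0.05 towards the SSS and 1 towards the CG, against 1.26% and 1.23% of all genes. The summed CPM of the list, of which the microtubule-associated MAP2 is 50.4%, was lower in the CG of every animal, by a log2 ratio of -0.19 ± 0.08.

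TBR1, the transcription factor that follows EOMES in newborn neurons of the deep layers, read 42.3, 41.7, 40.2, 27.6 and 36.2 CPM in the CG and 67.00, 74.1, 42.3, 122 and 72.7 CPM in the SSS. It was lower in the CG of 5 of 5 animals, by least in animal 3 and by most in animal 4 (log2 fold change -0.92, SE 0.213, adjusted p = 0.382, edgeR). Without animal 4 its log2 fold change was -0.64. SEMA3C, a secreted guidance cue, read 34.1, 38.4, 34.1, 35.3 and 52.6 CPM in the CG and 66.4, 40.2, 49.97, 57.2 and 76.7 CPM in the SSS. The CG was lower within every animal (log2 fold change -0.57, SE 0.132, adjusted p = 0.382, edgeR). Across animals the regions overlapped, as the CG library of animal 5 lay above the SSS libraries of animals 2 and 3. NEUROD6, a factor of migrating excitatory neurons, read 30.1, 46.3, 21.03, 21.8 and 47.1 CPM in the CG and 44.2, 41.9, 46.97, 35.8 and 52.04 CPM in the SSS and was lower in the CG of 4 of 5 animals. FEZF2, which specifies subcortically projecting neurons and is also expressed in progenitors, read 53.9, 20.7, 45.1, 27.6 and 48.2 CPM in the CG and 23.1, 12.96, 22.7, 21.8 and 35.8 CPM in the SSS. It was chosen after its values were seen, as was SLC17A7, the vesicular glutamate transporter VGLUT1, which had 171 reads in 10 libraries and none in the SSS library of animal 4. Both were measured higher in the CG of 5 of 5 animals, with log2 fold changes of 0.74 and 1.59.

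The interneuron list leaned the same way. Of 41 listed genes 38 were in the table and 33 were tested, of which 23 had a negative log2 fold change (median -0.17). An unadjusted p under 0.05 towards the SSS was found for 8 of 33 genes, among them SST, CXCR4, DLX6, ERBB4, GAD2, GAD1 and NXPH1, and towards the CG for NPY alone, where 1.86% and 1.85% of all genes did so. Only SST passed the adjusted test. When animal 4 was left out the 8 became 4, where 1.26% of all genes lay, and 20 of 33 genes were negative. The summed CPM of the list was lower in the CG of 4 of 5 animals (log2 ratio -0.30 ± 0.24, and -0.21 ± 0.17 without animal 4). SST was 19.9% of it, and without SST the ratio was -0.15 ± 0.20.

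CXCR4, the chemokine receptor that steers migrating interneurons, read 108.2, 63.7, 93.5, 183 and 138 CPM in the CG and 161, 109, 80.6, 441 and 204 CPM in the SSS. Animal 3 went against the rest, and the log2 fold change was -0.60 with animal 4 and -0.43 without it. GAD1 and GAD2 encode the enzymes that make GABA. GAD1 read 81.7, 85.3, 100.2, 93.5 and 98.7 CPM in the CG and 96.2, 116, 122, 208 and 115 CPM in the SSS, lower in the CG of 5 of 5 animals. GAD2 read 65.8, 107.7, 112, 149 and 103 CPM in the CG and 146, 117, 117, 265 and 126 CPM in the SSS, and again the SSS library of animal 4 was the highest by far. Their log2 fold changes of -0.46 and -0.49 were -0.30 and -0.40 without animal 4. NXPH1, a secreted ligand of neurexins found in interneurons, was at -0.55, and at -0.33 without animal 4. DLX6, a homeobox gene of the ganglionic eminences, read 18.9, 36.1, 11.9, 36.03 and 37.6 CPM in the CG and 30.04, 49.9, 31.4, 107.5 and 54.1 CPM in the SSS, and the receptor ERBB4 read 334, 419, 419, 525 and 551 CPM in the CG and 504, 542, 461, 524 and 707 CPM in the SSS. DLX6 and ERBB4 were chosen after their values were seen.

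NPY, a neuropeptide that many somatostatin neurons also make, went against SST. It read 446, 256, 212, 225 and 179 CPM in the CG and 178, 138, 185, 139.7 and 100.03 CPM in the SSS, so that within every animal the CG was higher. Animal 1 had the largest gap and animal 3 the smallest (log2 fold change 0.79, SE 0.170, adjusted p = 0.305, edgeR). Without animal 4 its log2 fold change was 0.81. SST and NPY both stand in the interneuron, subplate and neuropeptide lists. The subplate list had 5 positive and 6 negative genes of 11 tested (median -0.08), which became 7 positive and a median of 0.13 without animal 4. Its sum was lower in the CG of 5 animals with SST, which is 50.6% of it, and higher in 5 without SST (log2 ratio -0.34 ± 0.29 and 0.24 ± 0.16). The neuropeptide list had 15 negative genes of 26 tested (median -0.04), and without animal 4 it had 16 positive ones (median 0.05). The 9 tested neuropeptide receptors had 7 positive log2 fold changes (median 0.34), and 4 without animal 4 (median -0.01).

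Genes of the postsynapse were mostly measured lower in the CG. Of 50 listed genes of glutamate receptors and their scaffolds 48 were in the table and 43 were tested, 29 of them with a negative log2 fold change (median -0.15). DLGAP1, NETO2, CACNG3 and CACNG2 had an unadjusted p under 0.05, all towards the SSS, 4 of 43 where 1.86% of all genes did so. Lower in the CG of 5 of 5 animals were 4 of 43, and none was higher in all, where 3.33% and 3.80% of all genes were. Leaving out animal 4 gave 34 negative genes of 43. In that fit 6 had an unadjusted p under 0.05 towards the SSS and none towards the CG, against 1.26% and 1.23% of all genes. The summed CPM was lower in the CG of every animal (log2 ratio -0.21 ± 0.07). GRIA2, the AMPA receptor subunit that limits calcium entry, was 19.8% of the sum, and without it the ratio was -0.22 ± 0.10.

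DLGAP1, a scaffold that binds PSD-95, read 93.3, 101, 97.7, 75.9 and 101 CPM in the CG and 136, 178, 119.9, 279.9 and 129 CPM in the SSS. All CG libraries lay below all SSS libraries (log2 fold change -0.77, SE 0.181, adjusted p = 0.382, edgeR), and the log2 fold change was -0.50 without animal 4. NETO2, an auxiliary subunit of kainate receptors, read 228, 174, 197, 269.8 and 288 CPM in the CG and 279.9, 259.9, 205, 366 and 321 CPM in the SSS. It was lower in the CG within each animal, while the spread between animals was wider (log2 fold change -0.31, SE 0.107, adjusted p = 1.00, edgeR). CACNG3 and CACNG2 encode auxiliary subunits of AMPA receptors. CACNG3 had 41 reads in the CG and 150 in the SSS (log2 fold change -2.00, SE 0.892), and CACNG2, chosen after its values were seen, was at -0.75 (SE 0.361). Leaving out animal 4, CACNG3 was at -1.40 and CACNG2 at -0.56.

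Presynaptic genes had 27 negative log2 fold changes of 42 tested (median -0.07, and -0.15 without animal 4), and 57 were listed. RIMS2, an active zone protein, read 304, 394, 332, 307 and 333 CPM in the CG and 401, 497, 465, 500.4 and 367 CPM in the SSS, lower in the CG of 5 of 5 animals (log2 fold change -0.41, SE 0.148, adjusted p = 1.00, edgeR). SYN1, the vesicle protein synapsin I, was lower in 4 of 5 animals, with log2 fold changes of -0.59 and, without animal 4, -0.41. The sum of the list was lower in the CG of 5 animals (log2 ratio -0.14 ± 0.08), and without RIMS2 of 4. Genes of voltage-gated channels had 22 positive and 22 negative log2 fold changes of 44 tested (median -0.01), none at an unadjusted p under 0.05 in edgeR. The even split rested on animal 4, and without it 28 were negative (median -0.11). Their summed CPM was lower in the CG of 4 of 5 animals, and of 5 when CACNA2D1, the most abundant member, was left out (log2 ratio -0.12 ± 0.10).

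Receptors of GABA and glycine differed among themselves. Of 15 tested genes 11 had a negative log2 fold change (median -0.19). GABRG1, the gamma 1 subunit of the GABA-A receptor, read 25.8, 6.24, 21.3, 39.1 and 19.7 CPM in the CG and 13.00, 1.33, 5.19, 4.08 and 12.8 CPM in the SSS and was higher in the CG of 5 of 5 animals (log2 fold change 1.75, SE 0.561, adjusted p = 1.00, edgeR). Without animal 4 its log2 fold change was 1.39. GABBR1, a subunit of the metabotropic GABA-B receptor, read 110.2, 98.8, 121, 93.5 and 64.3 CPM in the CG and 89.8, 72.5, 88.7, 16.3 and 56.8 CPM in the SSS, with a log2 fold change of 0.71 that became 0.34 without animal 4. GABRA3, which gave 19.1% of the summed CPM, was at -0.31 (SE 0.153), and at -0.20 without animal 4.

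**Figure D4:**
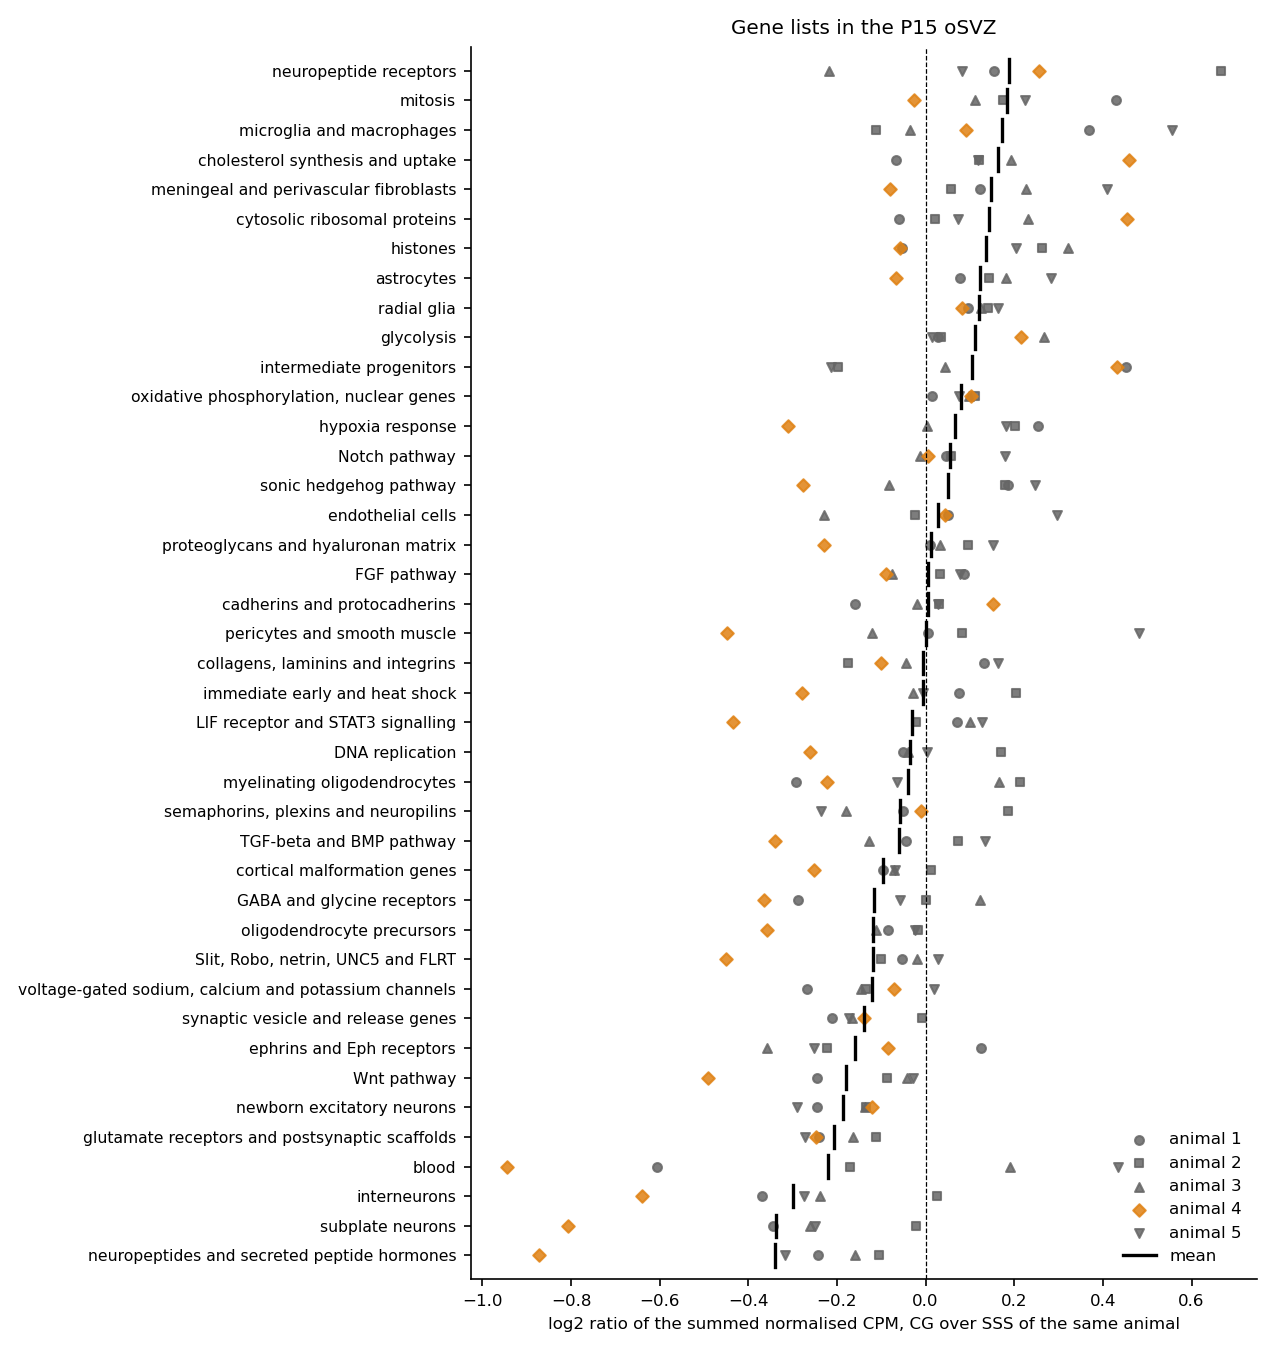
Log2 ratio of the summed normalised CPM of a gene list, CG over SSS of the same P15 animal (x axis), for 41 lists ordered by their mean (black bar). Each point is 1 animal, animal 4 in orange, and the list of ependyma and choroid plexus, with 5 tested genes, is left out. Radial glia lie right of 0 in 5 of 5 animals, and newborn excitatory neurons and glutamate receptors lie left of it in 5 of 5.

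Among guidance genes, those of the Slit, Robo, netrin, UNC5 and FLRT families were mostly measured lower in the CG. Semaphorins, plexins and neuropilins had 13 positive log2 fold changes of 29 tested (median -0.01, and -0.04 without animal 4). SEMA3A, a secreted repellent, was at 0.75 (SE 0.357), opposite in sign to SEMA3C, and at 0.34 without animal 4. The Slit, Robo, netrin, UNC5 and FLRT list had 16 negative of 22 tested (median -0.16 both with and without animal 4), 1 of them at an unadjusted p under 0.05. Its summed CPM was lower in the CG of 4 of 5 animals, and of 5 without its most abundant member NEO1 (log2 ratio -0.20 ± 0.30). DCC, the netrin receptor, read 13.2, 26.6, 27.8, 27.98 and 25.9 CPM in the CG and 25.7, 35.9, 45.6, 102 and 35.5 CPM in the SSS and was lower in the CG of 5 of 5 animals (log2 fold change -0.88, SE 0.358, adjusted p = 1.00, edgeR). The SSS library of animal 4 was more than any other, and without that animal the log2 fold change was -0.64. EPHA3, an Eph receptor, read 102, 139, 83.4, 192 and 181 CPM in the CG and 155, 176, 158, 187 and 261 CPM in the SSS. In animal 4 the CG was slightly above the SSS, and the log2 fold change of -0.47 became -0.60 without it, with an adjusted p in edgeR of 0.823 and 0.140. Ephrins and Eph receptors as a list had 8 negative of 14 tested (median -0.08).

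CDH4, the cadherin also called R-cadherin, read 25.8, 30.2, 34.1, 63.2 and 57.01 CPM in the CG and 21.9, 24.9, 21.3, 11.3 and 21.3 CPM in the SSS, with every CG library above every SSS library (log2 fold change 0.98, SE 0.311, adjusted p = 1.00, edgeR). Animal 4 had the widest gap, and without it the log2 fold change was 0.65. CDH11 was lower in the CG of 5 of 5 animals (log2 fold change -0.37, SE 0.167). Cadherins and protocadherins as a list were split evenly, 17 and 17 of 34 tested (median 0.03), while without animal 4 12 were positive and 22 negative (median -0.13). Proteoglycans and hyaluronan matrix genes had 13 positive of 31 tested (median -0.03). SPOCK1, a secreted proteoglycan also called testican 1, read 233, 203, 208, 104 and 181 CPM in the CG and 158, 145, 149.6, 62.1 and 113 CPM in the SSS, higher in the CG within each animal by much the same ratio (log2 fold change 0.59, SE 0.139, adjusted p = 0.382, edgeR). NCAN, the brain proteoglycan neurocan, read 974, 1299, 1209, 788 and 1006 CPM in the CG and 1252, 1348, 1384, 1336 and 1009.8 CPM in the SSS, lower in the CG of 5 of 5 animals (log2 fold change -0.27, SE 0.115). Animal 5 was nearly level, and without animal 4 the log2 fold change was -0.16. Collagens, laminins and integrins had 24 positive of 43 tested and a median of 0.10, which turned to -0.08 without animal 4.

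Glial lists held small differences. Astrocyte genes had 18 positive log2 fold changes of 27 tested at P15 (median 0.12), none at an unadjusted p under 0.05 in edgeR. Without animal 4 they had 16 (median 0.03), and 2 had an unadjusted p under 0.05 in edgeR towards the CG, where 1.23% of all genes did. SPARCL1, a matricellular protein of astrocytes, was 58.8% of their summed CPM, at means of 5961 CPM in the CG and 5343 CPM in the SSS (log2 fold change 0.15, SE 0.0847). The sum was higher in the CG of 4 of 5 animals (log2 ratio 0.12 ± 0.13, and 0.17 ± 0.09 without animal 4). Without SPARCL1 it was higher in 5 of 5 (0.08 ± 0.05). ALDH1L1, an enzyme of folate metabolism that marks astrocytes, was at 36.9 to 52.1 CPM in the CG and 24.9 to 35.5 CPM in the SSS, a gap between the regions with a log2 fold change of 0.59 and an SE of 0.424. GFAP lay at 115 to 219 and 100.3 to 179 CPM. Oligodendrocyte precursor genes had 12 negative of 17 tested (median -0.10, and -0.05 without animal 4), again with none at an unadjusted p under 0.05, and their summed CPM was lower in the CG of 5 animals, by -0.12 ± 0.14. PDGFRA, the receptor that defines these cells, was at 445 to 770.4 CPM in the CG and 539 to 859 in the SSS.

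Genes of myelinating oligodendrocytes varied between animals far more than between regions. Their summed CPM ran from 1002 to 4784 in the CG and from 1047 to 4263 in the SSS, and MBP, the myelin basic protein, ran from 109 to 1931 and from 163 to 1567 CPM. Of 16 tested genes 7 had a positive log2 fold change (median -0.03, and -0.08 without animal 4). MAG, a myelin glycoprotein, read 35.1, 20.02, 64.03, 3.07 and 3.65 CPM in the CG and 4.33, 15.3, 31.4, 0 and 2.03 CPM in the SSS, higher in the CG within each animal (3.02-fold), and TF, the iron carrier transferrin, was at -1.81 (SE 0.857) and at -1.15 without animal 4, with 69.0 CPM in the SSS library of animal 4 and at most 17.6 elsewhere.

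Markers of other cells were present in both regions. Microglia and macrophage genes had 13 positive of 22 tested (median 0.07), and SPP1, the secreted phosphoprotein osteopontin, was at 1.10 (SE 0.465) and at 0.73 without animal 4. TYROBP, a microglial adaptor, read 185, 47.9, 80.4, 80.1 and 172 CPM in the CG and 77.4, 65.8, 66.1, 76.7 and 53.7 CPM in the SSS, with animals 1 and 5 highest in the CG. Endothelial genes had 15 positive of 22 (median 0.19), pericyte and smooth muscle genes 6 of 11 (0.02, and 0.08 without animal 4), and fibroblast genes 7 of 9 (0.66, and 0.28 without animal 4), of which OGN was 65.8% of the sum. Blood genes had 2 of 4 (median -0.05, and 0.08 without animal 4), and their summed CPM was 24.5 to 46.7 in the CG and 29.7 to 87.1 in the SSS, highest in animal 4. The list of ependyma and choroid plexus had 5 tested genes of 16 listed (median 0.14, and -0.34 without animal 4). No member of the endothelial, pericyte, fibroblast, blood or ependymal lists passed the adjusted test, and ADGRA2 was the sole one with an unadjusted p under 0.05 in edgeR. The part of these cells in the neuronal and glial differences was not tested.

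Among genes of protein synthesis and metabolism, those of the ribosome and of oxidative phosphorylation leaned to the CG by small amounts. Cytosolic ribosomal protein genes had 25 positive of 28 tested (median 0.15), of 80 listed of which 29 were in the table, and 5 had an unadjusted p under 0.05, where 1.85% of all genes did so in this direction. RPL7 read 1805, 1107, 1314, 2106 and 2010.02 CPM in the CG and 1677, 969.9, 1142, 1434 and 1820.2 CPM in the SSS and was higher in the CG of 5 of 5 animals (log2 fold change 0.24, SE 0.0840, adjusted p = 1.00, edgeR). RPS27A did likewise (log2 fold change 0.23, SE 0.0818), while RPS16 was higher in 4 of 5 (0.30, SE 0.122). Without animal 4 the log2 fold changes of RPL7 and RPS16 were 0.16 and 0.15. Reads of such genes can be split with near-identical copies. Over the other 4 animals the ribosomal list had 20 positive of 28 (median 0.06). Only 1 stayed at an unadjusted p under 0.05 towards the CG, where 1.23% of all genes lay. The summed CPM of the list was higher in the CG of 4 of 5 animals (log2 ratio 0.14 ± 0.20, and 0.07 ± 0.12 without animal 4). Nuclear genes of oxidative phosphorylation had 31 positive of 39 (median 0.09), and their sum was higher in 5 animals, by 0.08 ± 0.04. Genes of cholesterol synthesis and uptake had 15 positive of 21 (median 0.17, and 0.04 without animal 4), led by SQLE, squalene epoxidase, at 0.33 (SE 0.148). Glycolysis genes had 9 of 15 (median 0.05, and 0.11 without animal 4), with PFKM, a phosphofructokinase, at 0.54 (SE 0.249). Immediate early and heat shock genes had 11 of 20 (0.02, and 0.09 without animal 4), and hypoxia response genes 10 of 16 (0.04, and 0.13 without animal 4), neither with a member at an unadjusted p under 0.05 in edgeR.

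Signalling pathways leaned in different ways, and several of their medians moved without animal 4. Notch pathway genes had 17 positive log2 fold changes of 24 tested (median 0.18, and 0.04 without animal 4), with NCSTN, the nicastrin subunit of gamma-secretase, at 0.74 (SE 0.316). Their summed CPM was higher in the CG of 4 of 5 animals (log2 ratio 0.06 ± 0.08), and of 5 without their most abundant member MAML2 (0.08 ± 0.08). Wnt pathway genes had 19 negative of 32 (median -0.11, and -0.05 without animal 4), with BCL9L, a coactivator of beta-catenin, at 1.11 (SE 0.459) and ZNRF3, a ligase that removes Wnt receptors, at 0.73 (SE 0.334, and 0.39 without animal 4). The Wnt sum, of which APC was 94.8%, was lower in the CG of 5 of 5 animals (log2 ratio -0.18 ± 0.19). Without APC it was higher in 3 of 5 (-0.14 ± 0.31). Sonic hedgehog genes had 7 positive of 13 (median 0.18, and 0.11 without animal 4), and TGF-beta and BMP genes 18 of 33 (median 0.03, and 0.01 without it). FGF pathway genes had 15 negative of 26 (median -0.07), and 13 of 26 without animal 4 (median -0.0006). ETV1, a transcription factor induced by FGF that also marks layer 5 neurons, read 68.8, 95.2, 72.2, 37.6 and 77.8 CPM in the CG and 110.04, 110.4, 105, 143 and 76.7 CPM in the SSS, lower in the CG of 4 of 5 animals (log2 fold change -0.65, SE 0.224, adjusted p = 1.00, edgeR). Without animal 4, which had the widest gap, its log2 fold change was -0.36. The LIF receptor and STAT3 list had 9 negative of 15 (median -0.06, and 0.02 without animal 4). Cortical malformation genes, those whose mutation disturbs the human cortex, had 28 positive of 54 (median 0.05, and -0.01 without animal 4). Of these KIF5C, a kinesin motor, read 3287, 2931, 2913, 2961 and 2629.8 CPM in the CG and 4118, 3245, 3203, 3807 and 3065 CPM in the SSS, lower in the CG of 5 of 5 animals by a narrow margin (log2 fold change -0.24, SE 0.0786, adjusted p = 1.00, edgeR).

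Of the 38 genes that the study names for this comparison, all were tested, 26 had a positive log2 fold change, 20 were higher and 8 lower in the CG of 5 of 5 animals, and 27 had an unadjusted p under 0.05. The study chose them on these same libraries, so these counts are no independent evidence. Of the members not yet described, several were measured at about 2-fold in the CG from few reads each. PRDM16, a chromatin regulator of radial glia, read 22.5, 27.6, 27.1, 10.3 and 21.9 CPM in the CG and 12.1, 19.3, 10.9, 1.36 and 13.9 CPM in the SSS, higher in 5 of 5 animals. AKNA, a centrosomal protein of delaminating progenitors, read 9.26, 17.7, 7.24, 27.98 and 9.14 CPM in the CG and 0.866, 6.65, 5.19, 0.907 and 8.79 CPM in the SSS, higher in 5 of 5 but nearly level in animal 5. SERPINF1, which encodes the secreted factor PEDF, read 44.3, 35.1, 31.5, 36.03 and 27.8 CPM in the CG and 28.6, 16.95, 27.3, 3.18 and 15.2 CPM in the SSS, so that the SSS library of animal 4 carried much of the gap. Log2 fold changes were 1.10 for PRDM16, 1.78 for AKNA and 1.13 for SERPINF1, and 0.84, 1.18 and 0.68 without animal 4. RALGDS, an exchange factor of Ral GTPases, VPS18, a subunit of vesicle tethering complexes, GTF2H5, a subunit of TFIIH, and NOX4, an NADPH oxidase, were higher in 5 of 5 animals with log2 fold changes of 1.04, 1.19, 1.10 and 1.44, of which that of GTF2H5 fell to 0.59 without animal 4. GABRA5, a GABA-A receptor subunit, was at 1.06 (SE 0.623), higher in 5 of 5.

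The strongest fold changes with 1 direction in 5 of 5 animals belonged to genes with few reads. Among genes with a symbol, at least 50 reads, an unadjusted p under 0.05 and 1 direction in 5 of 5 animals, the most positive log2 fold changes were those of TESK2 (3.14), RXFP2 (3.06), HSF2BP (2.93), GMPPB (2.78) and PTPN22 (2.77). TESK2, a kinase of the actin cytoskeleton, had 53 reads in the CG and 6 in the SSS. RXFP2, the receptor of the hormone INSL3, had 113 and 20. HSF2BP, a protein of meiotic recombination, had 65 and 8, PTPN22, a phosphatase of immune cells, 74 and 15, and GMPPB, an enzyme of sugar nucleotide synthesis, 79 and 22. The most negative were those of NFKBIE (-3.30), a copy of U6 (-3.07), ADGRA2 (-2.54), DPM2 (-2.24) and CACNG3. NFKBIE, an inhibitor of NF-kappa-B, had 6 CG reads and 48 SSS reads, and ADGRA2, a receptor of brain endothelium, had 27 and 111. DPM2, a subunit of the dolichol-phosphate mannose synthase, had 45 and 166, of which the SSS library of animal 4 was the highest at 33.6 CPM. U6 has many near-identical copies, so its value is uncertain. No gene of this group passed the adjusted test, and the smallest SE among them was 0.759 for DPM2.

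Of the remaining genes among the 15 with the lowest p, CEP78, a centriolar protein, read 51.6, 54.8, 53.5, 69.8 and 62.1 CPM in the CG and 17.9, 37.6, 34.7, 21.8 and 40.6 CPM in the SSS, with every CG library above every SSS library (log2 fold change 0.98, SE 0.244, adjusted p = 0.549, edgeR). RPL22L1, a paralogue of a ribosomal protein, read 67.1, 40.4, 53.98, 67.8 and 58.1 CPM in the CG and 23.7, 22.9, 16.7, 37.7 and 52.4 CPM in the SSS, higher in the CG of 5 of 5 animals (log2 fold change 1.00, SE 0.261, adjusted p = 0.772, edgeR). TMEM259, the membrane protein membralin, read 64.5, 40.4, 49.3, 40.2 and 24.9 CPM in the CG and 181, 74.8, 83.6, 107.5 and 33.1 CPM in the SSS, lower in the CG in 5 of 5 (log2 fold change -1.01, SE 0.220, adjusted p = 0.306, edgeR). CCSER1 read 22.8, 47.9, 13.8, 28.4 and 43.9 CPM in the CG and 78.8, 51.9, 33.9, 54.9 and 72.7 CPM in the SSS, lower in 5 of 5 (log2 fold change -0.97, SE 0.228, adjusted p = 0.382, edgeR). HCFC1, a coregulator of transcription, read 54.6, 66.96, 87.4, 47.5 and 48.2 CPM in the CG and 172, 104, 131, 161 and 53.7 CPM in the SSS, also lower in 5 of 5, with a narrow gap in animal 5 (log2 fold change -0.96, SE 0.247, adjusted p = 0.745, edgeR). DOP1A, a protein of membrane traffic, is not among these 15 but is named by the study. It was lower in the CG of 5 of 5 animals, with a log2 fold change of -0.52 and an SE of 0.143. Of the 15, none of the 13 beyond SST and EOMES passed the adjusted test, and neither did DOP1A.

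No gene had a regional difference at P15 that differed from that at P5 after adjustment. The interaction of region and age gave 0 of 12669 genes at an FDR under 0.05 in edgeR and 488 (3.85%) at an unadjusted p under 0.05, while limma-voom gave 0 and DESeq2 gave 1. SST had the lowest p of the interaction (2.29e-05, adjusted p = 0.290, edgeR). Its log2 fold change was -0.94 at P15 and 0.22 at P5, where its means were 163 CPM in the CG and 141 CPM in the SSS, so that it was measured higher at P15 in both regions. CDK18, a kinase linked to oligodendrocytes, and FBLN7, a secreted fibulin, came next, with log2 fold changes of 0.04 and -0.18 at P15 (0.48 and 0.06 without animal 4) and -5.37 and 1.31 at P5 (adjusted p = 0.998 for both, edgeR). Side by side, 471 genes had an unadjusted p under 0.05 at P15 and 1017 at P5, and the SD of all log2 fold changes was 0.56 and 0.69. The medians of radial glia were 0.18 at P15 and 0.27 at P5, those of mitosis 0.19 and 0.32, and those of ribosomal proteins 0.15 and 0.26. Those of astrocytes were 0.12 and 0.58, those of interneurons -0.17 and 0.03, and those of newborn excitatory neurons -0.17 and 0.03. Without P15 animal 4 the P15 medians of ribosomal proteins and astrocytes were 0.06 and 0.03. The difference of these list medians between the ages was not tested.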

How the data were processed

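Ferret oSVZ was captured by laser below the CG and the SSS at P5 and P15 (5 animals per age, 20 libraries). The authors trimmed the SPIA-amplified reads with Trimmomatic 0.38, checked quality with FastQC 0.11.9, used STAR 2.7.9a for alignment to the ferret assembly MusPutFur1.0 and assigned them to Ensembl genes with featureCounts. The deposited values are raw counts, 1 column per library, with no normalisation, and the authors analysed them with edgeR 3.42.4 in R 4.3.1. The sources used here do not say whether counting used strand. The symbol column was out of register with the identifiers, so the identifiers were sorted and the symbols, kept in their order, were given to them 1 by 1. Under this pairing 29 ribosomal protein identifiers had a median of 851 CPM, against 1.39 CPM line by line. Housekeeping families had medians of 61.4 to 83.9 CPM in each of the first 5 sixths of the sorted symbols, while the last sixth held 3 such genes at a median of 0.359 CPM and so was hardly checked. This wider check was chosen after seeing the data.

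Low counts were removed with filterByExpr (at least 10 reads in enough libraries and 15 in all), and the rest was scaled by TMM and fitted over all 20 libraries with edgeR 4.0.16 in R 4.3.3 (quasi-likelihood of the older kind), with 1 term per animal and a regional term per age. Limma 3.58.1 and DESeq2 1.42.0 served as alternatives, and figures were drawn with Python 3.11.15 and matplotlib 3.10.9. Adjusted p-values (FDR) are Benjamini-Hochberg over all genes tested, and a call has an FDR under 0.05. The scripts were tested on simulated data. CPM values are scaled by TMM. Library measures were compared by an exact permutation test over 5 animals, whose smallest p is 0.0625, and gene-wise calls lean on the variance that edgeR moderates across genes. Pairing comes from the animal in the library names. Residuals of same-animal libraries at P15 correlated at 0.07 to 0.25 (median 0.17), and those of different animals at -0.16 to 0.13.

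The 43 gene lists, the tests and the naming rule were chosen with earlier results of these data known. Named genes are the calls, the 15 lowest p, the 5 most positive and 5 most negative log2 fold changes among genes with a symbol, at least 50 reads, an unadjusted p under 0.05 and 5 animals in 1 direction, the genes the study names, the 3 lowest p of each list, the first 3 measured genes of each of the 14 cell type lists and the 3 lowest p of the interaction with age. Of these, the text prints values for those that its comparisons turn on. Other genes are stated as chosen after their values were seen. A gene of the interneuron list is counted but not reported here by name. Alternatives changed the scaling, the test, the filter, the libraries fitted, the animal term and the prior count, or left out 1 animal.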

Additional observations from a re-analysis of the deposited data

Results flagged for a closer look

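In 25 of 254 sets of 5 libraries checked, 1 library lay further from its neighbours than Dixon's ratio of 0.71 allows, and chance alone does this in about 1 set in 20. The SSS library of animal 4 accounts for most of the cases in the SSS. It held 1371 tested genes with no read, against 49 to 366 in the other SSS libraries. It was the highest SSS library for GAD1 (208 CPM, others 96.2 to 122), GAD2 (265 CPM, others 117 to 146), CACNG2 (56.3 CPM), DCC (102 CPM), TF (69.0 CPM) and DPM2 (33.6 CPM), and for the summed CPM of blood genes (87.1). It was the lowest for CDH4 (11.3 CPM, others 21.3 to 24.9) and for the summed CPM of intermediate progenitors (176).

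The SSS library of animal 5 was the highest for EOMES (9.80 CPM, others 1.36 to 2.73) and for NEUROG2 (2.03 CPM). The SSS library of animal 3 was the highest for the summed CPM of myelinating oligodendrocytes (4263), and that of animal 2 for PGAP4 (10.3 CPM).

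In the CG, animal 1 was the highest for NPY (446 CPM, others 179 to 256), VIM (517 CPM, others 340.5 to 366), GPM6B (1482 CPM) and the summed CPM of intermediate progenitors (367), and the lowest for DCC (13.2 CPM) and the sum of voltage-gated channels (906). Animal 5 was the highest for SEMA3C (52.6 CPM, others 34.1 to 38.4). Animal 2 was the highest for the interneuron sum (3252) and the lowest for the sum of the genes the study names (3672). Animal 3 had the most counted reads (4095210) and the highest PGAP4 (1290.1 CPM).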

How the results depend on the processing

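The number of genes called between the regions at P15 was 2 and changed with the test and the libraries fitted. It was 4 with the newer quasi-likelihood of edgeR, 11 with DESeq2, 9 with limma-voom and 18 with no filter on low counts. SST was called in each of these, while EOMES was not called with the newer quasi-likelihood or with limma-voom. The number was 0 with the P15 libraries alone and 0 to 2 when 1 animal was left out, with 0 also without the SSS library of P15 animal 4 alone. Without the pairing by animal (no replicate block) it was 0, and the adjusted p in edgeR was 0.754 for SST and 0.282 for EOMES. Other scaling, a stricter filter and a prior count of 2 kept both calls. SST was called under 12 of 21 alternatives (adjusted p 3.27e-09 to 0.754) and EOMES under 9 (7.62e-07 to 0.963). Interaction calls, 0 here, were 1 with DESeq2, 5 with no filter and 0 to 1 when 1 animal was left out. Of the named genes refitted under each alternative none changed sign, while FBLN7, refitted without animal 4 alone, went from -0.18 to 0.06. The median log2 fold change of intermediate progenitors moved from 0.30 to 0.67 without animal 3 and to 0.98 without animal 4, and that of immediate early and heat shock genes from 0.02 to -0.20 without animal 2. Of 42 list medians 10 turned their sign without animal 4. The median of collagens, laminins and integrins moved from 0.10 to 0.00 with limma-voom and the newer quasi-likelihood, -0.06 with no pairing and -0.08 without animal 3 or 4. Genes under 10 CPM, with a median SE of 0.94, limit what a 2-fold difference can show at this depth.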

Other observations

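A few abundant genes had large mean differences that 1 or 2 libraries set. GPM6B and PSMC1 were chosen after their values were seen, and PGAP4 is named by the study. GPM6B, a membrane glycoprotein of neurons and glia, read 1482, 40.7, 85.3, 71.3 and 422 CPM in the CG of animals 1 to 5 and 45.4 to 75.1 CPM in the SSS. PSMC1, a proteasome subunit, read 1021 and 702 CPM in the CG of animals 1 and 2, and 39.5 to 60.1 CPM in the CG of the others. PGAP4, an enzyme of GPI anchor synthesis, read 1290.1 CPM in the CG of animal 3 and at most 10.3 CPM in any other P15 library. The paper lists it among the genes most raised in the CG at P15. It was higher in the CG of 3 of 5 animals (log2 fold change 3.49, SE 1.33). Of its 5581 CG reads 5521 were in animal 3. GPM6B and PGAP4 were called with the newer quasi-likelihood of edgeR, with limma-voom and with no filter on low counts, and not in the fit reported.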
